A study of Oryctolagus cuniculus with 8 samples.

Results

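The 7 oligodendrocyte genes GJB1, CLDN11, MAL, QDPR, ASPA, BCAS1 and GPR17, with roles in cell junctions and maturation were measured in the forebrain of preterm rabbit pups given dexamethasone or saline. Probes were taken where the array's own annotation gives the symbol or full name of one of the 7 genes, or where its gene ID or accession is that of the gene in RefSeq, which gave 15 of the 43603 probes on the array. CLDN11 and ASPA are named on the array with the ending -like, and MAL only by an older protein name, so these 3 rest on the gene ID or accession. GJB1 and QDPR have 5 probes each, and the other genes have 1 each. The 7 genes were all among the 11265 genes and transcripts that could be compared.

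The pups were New Zealand rabbits taken by C-section on gestation day 29, with term at day 32, gavage-fed, and killed on postnatal day 14. The dexamethasone group (4 samples) received 0.25 mg/kg of this synthetic glucocorticoid 2 times a day by intramuscular injection, for up to 5 days. The control group (4 samples) received the saline vehicle and was otherwise of the same breed, tissue and age. Prematurity and formula feeding were therefore shared by both groups, and the series holds no term pups. The title asks whether glucocorticoids after birth suppress myelination, and the design text calls the samples biological replicates, without giving litters or sexes.

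Oligodendrocytes wrap axons in myelin, and they pass through a precursor stage and a brief premyelinating stage before they do so. Mature cells couple to each other, to astrocytes and across their own myelin layers through gap junctions built of connexins, and they seal the edges of the sheath with tight junctions built of claudin 11. Other genes of the set act in the lipid supply, the membrane traffic and the timing of the same process, so that the set spans several steps of one programme. The extract was whole forebrain, in which fewer cells of a type and less RNA per cell cannot be told apart.

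The array carries probes of 60 bases, and the sequences below show what each signal rests on, since a gene's value here is the value of very few oligonucleotides. Positions are those of the rabbit build oryCun2 given in the file headers. The 5 QDPR probes are the same stretch moved by a few bases, and the 54 bases common to all of them are in capitals. They are 5 readings of one stretch of the transcript and not 5 independent places in it. Each covers 2938 bases of the genome within chr2:8117285-8120228, minus strand, so the 60 bases are not contiguous there.
QDPR probe 1: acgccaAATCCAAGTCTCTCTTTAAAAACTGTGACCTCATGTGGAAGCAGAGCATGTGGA
QDPR probe 2: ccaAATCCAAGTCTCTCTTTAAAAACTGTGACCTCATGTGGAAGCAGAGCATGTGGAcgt
QDPR probe 3: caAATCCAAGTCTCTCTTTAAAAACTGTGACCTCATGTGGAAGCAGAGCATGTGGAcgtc
QDPR probe 4: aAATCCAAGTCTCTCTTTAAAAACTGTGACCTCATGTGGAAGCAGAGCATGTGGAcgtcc
QDPR probe 5: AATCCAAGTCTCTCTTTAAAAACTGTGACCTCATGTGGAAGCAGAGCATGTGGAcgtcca

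The next 5 genes rest on 1 probe each, shown in lower case throughout because no part of the sequence was singled out. CLDN11 lies at chr14:65347375-65347434 (plus strand), MAL at chr2:95502766-95502825 (minus), ASPA at chr19:14918465-14918524 (minus) and GPR17 at chr7:59382159-59382218 (plus), while the BCAS1 probe has no position in the headers.
CLDN11: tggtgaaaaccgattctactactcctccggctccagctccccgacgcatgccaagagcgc
MAL: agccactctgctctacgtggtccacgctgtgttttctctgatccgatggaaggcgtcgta
ASPA: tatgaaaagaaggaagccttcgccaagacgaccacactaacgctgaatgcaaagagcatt
BCAS1: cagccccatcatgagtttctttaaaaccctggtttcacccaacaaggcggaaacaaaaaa
GPR17: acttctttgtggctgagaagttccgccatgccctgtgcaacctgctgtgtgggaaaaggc

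The MAL probe is described on the array by the protein's older name, T-lymphocyte maturation-associated protein, and its gene ID is that of MAL in RefSeq (mOryCun1.1). A different probe on the array reads as a MAL-like gene, LOC100351475, which is the next protein-coding gene to MAL in RefSeq. That probe, at chr2:95568942-95569001 (minus strand), was not counted as MAL, and its sequence is shown so that the pair can be kept apart.
MAL-like gene: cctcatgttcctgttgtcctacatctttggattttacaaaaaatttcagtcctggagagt

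The 5 GJB1 probes have positions within chrX:49698628-49698688 on the plus strand, begin at transcript bases 1444 to 1448 and share 56 bases. The positions span 59, 58 and 57 of the 60 bases for the probes at 1446, 1447 and 1448, so not all of their bases are placed there. The probe at 1447 is the brightest and stands for the gene. Outside its own gene, the longest exact run that any member probe shared with another probe on the array was 12 bases for GJB1 and BCAS1, 13 for CLDN11 and MAL, 14 for QDPR and ASPA, and 16 for GPR17.

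The 8 samples were read on 4 arrays with 2 dyes. Each array carried 2 samples of 1 group, with Cy3 for the odd replicate numbers and Cy5 for the even ones. Slide 1 and scan 1 held both saline arrays (1 and 2), and slide 2 and scan 2 both dexamethasone arrays (3 and 4), so slide, scan and treatment cannot be told apart in anything that follows. Between 39.1% and 64.3% of spots were well above background, with lower shares in saline within each dye, and outlier spots numbered 932 to 3022 per saline sample and 197 to 509 per dexamethasone sample. The 10 spike-in probes, which report RNA added at labelling, were all lower on the dexamethasone arrays, by -0.56 to -0.30 log2 units with a median of -0.41. Precision is limited by having 4 arrays, with a median standard error of 0.13 for a log2 difference.

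With dexamethasone, the mean of the gap junction gene GJB1 was 1.55-fold below saline and that of the tight junction gene CLDN11 1.37-fold below it. The means of MAL and QDPR, which belong to membrane traffic and cofactor recycling, were 1.42-fold and 1.37-fold above saline. BCAS1 was lower in 3 of 4 dexamethasone samples than in any saline sample, and ASPA and GPR17 differed by less than their spread. None of the 7 passed an adjusted p of 0.05 (limma, Benjamini-Hochberg over all 11265 genes), at which 0.0621% of all genes were called, 2 higher and 5 lower. That split was 4 higher and 3 lower under quantile normalisation, and 6 higher of 14 and of 15 called with processed signals under loess and under scaling to the 75th percentile. At an unadjusted p under 0.05 there were 4 of the 7 genes, 2 higher (MAL and QDPR) and 2 lower (GJB1 and CLDN11), against 13.7% of all genes, 6.31% higher and 7.4% lower. MAL passed the background filter with 2 of 4 saline and all 4 dexamethasone samples, so its place in the count leans on the group where it is higher. Without a filter on dim probes the count was also 4. That count moved between 1 and 5 over the alternatives. It was 2 with the deposited series table (MAL and QDPR), 2 with array means (GJB1 and QDPR) and 1 without dexamethasone array 3 (MAL). The median difference was 0.16 over the 7 genes and 0.02 over all genes tested. As the 7 genes were chosen with earlier results of these data known, neither the counts nor this median test the set against all genes.

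**Figure D1:**
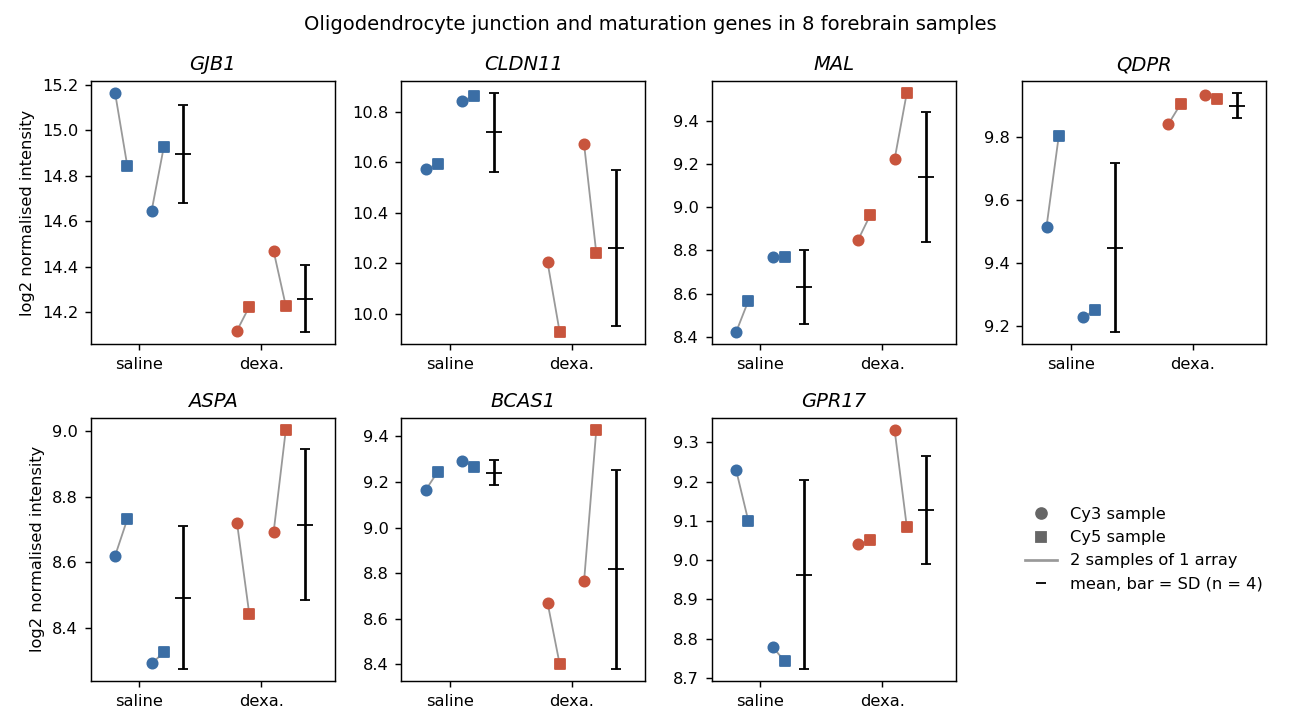
Log2 normalised intensity of each of the 7 genes (y axes, not starting at 0) in the 4 saline and 4 dexamethasone samples, for the probe that stands for the gene. Circles are Cy3 and squares Cy5 samples, grey lines join the 2 samples of an array, and bars give the mean and SD of a group (n = 4). The groups do not overlap for GJB1, MAL and QDPR, and the 2 samples of a saline array lie closer together than the 2 saline arrays do for CLDN11, MAL, QDPR, ASPA and GPR17.

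GJB1 encodes connexin 32, the gap junction protein of myelin-forming cells. In its brightest probe the saline samples 1 to 4 had log2 intensities of 15.16, 14.84, 14.65 and 14.93, and the dexamethasone samples 1 to 4 had 14.12, 14.22, 14.47 and 14.23. Every dexamethasone sample was below every saline sample, with the closest pair being saline 3 and dexamethasone 3. The means were 14.90 ± 0.21 in saline and 14.26 ± 0.15 with dexamethasone (SD, n = 4 each), a log2 difference of -0.64 (SE 0.15, limma adjusted p = 0.240). Of all genes tested, 1.20% had a smaller p. The difference was alike in both dyes, -0.61 between the Cy3 samples and -0.66 between the Cy5 samples.

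The overlapping GJB1 probes did not all give this separation. The probe at transcript base 1444 read 14.59, 14.17, 14.59 and 14.51 in saline and 13.78, 13.93, 14.01 and 13.89 with dexamethasone, again without overlap, a log2 difference of -0.56 (SE 0.13, limma adjusted p = 0.271 over 20704 probes). The other 3 probes lost 7 of their 24 values to outlier flags, 5 of them in saline, and could not be fitted with at least 3 values in each group. From the values that remained, the plain differences of the group means were -0.66, -0.27 and -0.0067 for the probes at bases 1448, 1446 and 1445, the last being about 0 and, within Cy5 alone, 0.16. With the outlier spots kept, the fitted log2 differences of these 3 were -0.45, -0.41 and -0.14. The probe at base 1445 then had an SE of 0.15, and its groups overlapped. That probe begins 1 base after the one with -0.56, so probes that share nearly all their bases gave differences that far apart.

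**Figure D2:**
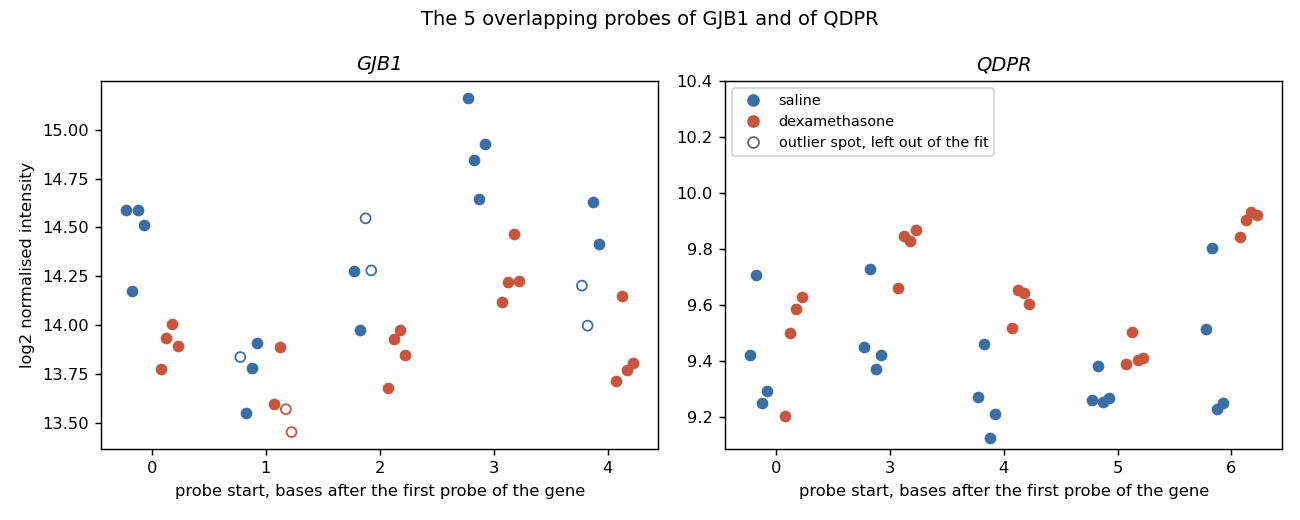
Log2 normalised intensity (y axes, not starting at 0) of the 5 overlapping probes of GJB1 and of QDPR in each of the 8 samples, placed by the start of the probe in bases after the gene's first probe, on an axis of ordered and not evenly spaced positions. Open circles are outlier spots left out of the fit, 7 for GJB1 and 0 for QDPR. GJB1 differences run from -0.64 to -0.14 with those spots kept, and QDPR differences from 0.06 to 0.45.

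Other connexins and pannexins gave few values beside GJB1. Of 22 genes listed, 10 had a probe and 5 were bright enough to be compared, with 2 above and 3 below 0, a median difference of -0.10 and 0 past an adjusted p of 0.05. GJC1 had a difference of -0.14 (SE 0.14) and GJA1, the main astrocyte connexin, 0.04 (SE 0.14).

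CLDN11 encodes the claudin that forms the tight junction strands of central myelin. Its log2 intensities were 10.57, 10.59, 10.84 and 10.86 in saline 1 to 4 and 10.20, 9.93, 10.67 and 10.24 in dexamethasone 1 to 4. The groups overlapped through dexamethasone 3, which exceeded both samples of saline array 1. The means were 10.72 ± 0.16 and 10.26 ± 0.31 (SD, n = 4 each), a log2 difference of -0.46 (SE 0.17, limma adjusted p = 0.346). The dyes differed in size, with -0.27 between the Cy3 samples and -0.64 between the Cy5 samples.

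CLDN11 is also made outside oligodendrocytes, among others by cells of the meninges, so markers of that tissue are given beside it. Of 14 leptomeninges markers, 11 had a probe and 10 were compared, 6 above and 4 below 0, with a median of 0.27 and 0 past an adjusted p of 0.05. A summed level was taken as log2 of the summed intensities of the markers with a value in all 8 samples. It lay between 13.8 and 16.1 for saline and between 15.7 and 17.2 for dexamethasone. COL1A2 and SLC22A8 were among the markers left out of it, and PTGDS was its brightest gene, with means of 15.07 and 16.26. ALDH1A2, on the array but too dim to compare, passed the scanner's background test in 0 of 8 samples. The markers were split, from -0.60 (SE 0.58) for COL1A2, below 0 as CLDN11 was, to 1.19 (SE 0.72) for PTGDS. SLC22A8, fitted with 3 of the 4 saline values, and SLC6A13 had the smallest p of them, with 0.72 (SE 0.29) and 0.52 (SE 0.26). The part of these cells in the CLDN11 difference was not tested. Among 32 listed claudin and tight junction genes, 21 had a probe and 11 were compared, 3 above and 8 below 0, with a median of -0.17 and 0 past an adjusted p of 0.05. CLDN23, fitted with 3 of the 4 saline values, had the smallest p of them, with -0.52 (SE 0.11, limma adjusted p = 0.208) and no overlap of the groups, followed by CLDN7 with -0.43 (SE 0.19).

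The spike-in shift is a further value to set beside the differences of the 7 genes. The CLDN11 difference of -0.46 and the BCAS1 difference of -0.43 lie inside the range of the 10 spike-in probes, -0.56 to -0.30, and the GJB1 difference of -0.64 lies below it. The other fitted GJB1 probe, with -0.56, lies inside that range at its lower end, as do 2 of the 3 probes not fitted when their outlier spots are kept (-0.45 and -0.41). MAL (0.51), QDPR (0.45), ASPA (0.22) and GPR17 (0.16) lie above the range, as does the median over all genes tested, 0.02. The part of that shift in any of these differences was not tested.

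MAL encodes a small membrane protein of lipid-rich rafts that carries cargo to the myelin sheath and appears late in maturation. Its log2 intensities were 8.42, 8.57, 8.77 and 8.77 in saline and 8.85, 8.96, 9.22 and 9.53 with dexamethasone. The groups did not overlap, but saline 3 lay only just below dexamethasone 1. The means were 8.63 ± 0.17 and 9.14 ± 0.30 (SD, n = 4 each), a log2 difference of 0.51 (SE 0.16, limma adjusted p = 0.316). The signal was near the lower end of what the array reads, passing the scanner's background test in 2 of 4 saline samples, both Cy5, and in all 4 given dexamethasone. The MAL difference was 1.00 with the scanner's processed signals under loess, and the cause of that larger value was not tested.

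The neighbouring MAL-like gene differed by -0.13 (SE 0.11), on the other side of 0. Of 13 listed genes of the MAL family and of rafts, 9 had a probe and 8 were compared, 4 above and 4 below 0, with a median of -0.04 and 0 past an adjusted p of 0.05. CMTM4, a relative of MAL, had a difference of -0.26 (SE 0.10) without overlap of the groups, and the caveola protein CAV2 had 0.29 (SE 0.13).

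QDPR encodes dihydropteridine reductase, which recycles tetrahydrobiopterin, the cofactor of the aromatic amino acid hydroxylases, and is abundant in mature oligodendrocytes. In the brightest probe (probe 5) the log2 intensities were 9.52, 9.80, 9.23 and 9.25 in saline and 9.84, 9.91, 9.93 and 9.92 with dexamethasone. The dexamethasone samples sat close together above all saline samples, with saline 2 just below the lowest of them. The means were 9.45 ± 0.27 and 9.90 ± 0.04 (SD, n = 4 each), a log2 difference of 0.45 (SE 0.14, limma adjusted p = 0.311), with 0.52 between the Cy3 and 0.39 between the Cy5 samples.

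All 5 QDPR probes were above 0 and none lost a value to outlier flags. Probes 1 to 5 gave log2 differences of 0.06, 0.31, 0.34, 0.14 and 0.45, with no steady change along the 6 bases by which they are moved. Probe 1, which shares all but 6 bases with probe 5, had groups that overlapped (9.25 to 9.71 in saline and 9.20 to 9.63 with dexamethasone), and its SE was 0.14. Averaging the kept probes of a gene lowered the QDPR difference to 0.26 (limma adjusted p = 0.329). The groups of probes 3, 4 and 5 did not overlap, although for probe 4 saline 2 and dexamethasone 1 were nearly level at 9.38 and 9.39.

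Other genes of the tetrahydrobiopterin pathway were mostly dim. Of 15 listed, 11 had a probe and 5 were compared, 4 above and 1 below 0, with a median of 0.13 and 0 past an adjusted p of 0.05. PCBD2, a dehydratase of the same recycling route, had a difference of 0.37 (SE 0.13, limma adjusted p = 0.345) and no overlap of the groups. On the other side of 0, NOS3, the endothelial nitric oxide synthase that uses the same cofactor, had -0.18 (SE 0.09), also without overlap.

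ASPA encodes aspartoacylase, which splits N-acetylaspartate into aspartate and the acetate that oligodendrocytes can build into lipid. Its log2 intensities were 8.62, 8.73, 8.29 and 8.33 in saline and 8.72, 8.44, 8.69 and 9.004 with dexamethasone. The groups overlapped, and the mean of saline array 1 was above that of dexamethasone array 3. The log2 difference was 0.22 (SE 0.17, limma adjusted p = 0.535), with a 95% interval from -0.16 to 0.60 that allows a difference in either direction. As for MAL, its probe passed the background test in 2 of 4 saline samples and in all 4 given dexamethasone.

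The N-acetylaspartate and acetate genes around ASPA included 1 large difference. Of 13 listed, 7 had a probe and 5 were compared, 2 above and 3 below 0, with a median of -0.02 and 0 past an adjusted p of 0.05. ACSS1, which turns acetate into acetyl-CoA in mitochondria, had a mean of 11.80 ± 0.57 in saline and 10.30 ± 0.19 with dexamethasone (SD, n = 4 each). Its log2 difference was -1.49 (SE 0.29, limma adjusted p = 0.174), with no overlap of the groups. ACSS2, the enzyme that does the same in cytosol and nucleus, had 0.15 (SE 0.16), and SLC13A3, a transporter of dicarboxylates and N-acetylaspartate, had -0.50 (SE 0.15, limma adjusted p = 0.305).

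BCAS1 marks premyelinating and newly myelinating oligodendrocytes. Its log2 intensities were 9.16, 9.25, 9.29 and 9.26 in saline and 8.67, 8.40, 8.77 and 9.43 with dexamethasone. The saline samples were nearly equal, 3 dexamethasone samples were below all of them, and dexamethasone 4 was the highest of the 8. The means were 9.24 ± 0.06 and 8.82 ± 0.44 (SD, n = 4 each), a log2 difference of -0.43 (SE 0.22, limma adjusted p = 0.409). Without dexamethasone array 3 the difference was -0.14, and without array 4 it was -0.71, so its size rests on the array chosen.

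GPR17 encodes a G protein-coupled receptor of the committed precursor stage, which has to be switched off for a cell to mature. Its log2 intensities were 9.23, 9.10, 8.78 and 8.74 in saline and 9.04, 9.05, 9.33 and 9.09 with dexamethasone. Saline array 1 was as high as the dexamethasone samples, while saline array 2 was below all of them. The log2 difference was 0.16 (SE 0.14, limma adjusted p = 0.588), with a 95% interval from -0.16 to 0.49. Without saline array 2 it was -0.04, and without saline array 1 it was 0.37. Of 15 listed nucleotide and leukotriene receptors near GPR17 in sequence or ligand, 5 had a probe and 2 were compared, P2RY14 with -0.08 (SE 0.09) and P2RY4 with -0.25 (SE 0.30). Both lay below 0, the list median was -0.17, and 0 passed an adjusted p of 0.05.

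**Figure D3:**
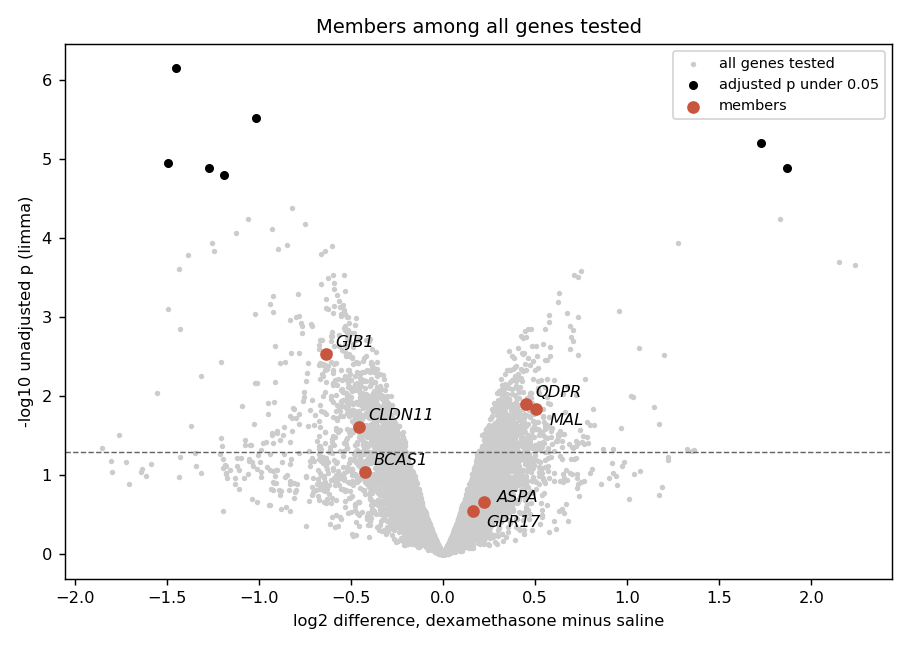
The 7 genes among the 11265 genes tested, with the log2 difference of dexamethasone minus saline on the x axis and -log10 of the unadjusted limma p on the y axis. The dashed line marks an unadjusted p of 0.05 and black points mark the 7 genes past an adjusted p of 0.05. GJB1, QDPR, MAL and CLDN11 lie above the line, with 1.20%, 3.96%, 4.51% and 7.05% of all genes at a smaller p, and BCAS1, ASPA and GPR17 lie below it.

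Across the set, the groups did not overlap for 3 of the 7 genes (GJB1 lower, MAL and QDPR higher), against 13.3% of all genes, 7.44% lower and 5.9% higher. MAL entered this count with 2 of 4 saline and all 4 dexamethasone samples past the background test. The samples of an array were not always the closer pair, since on the saline arrays the GJB1 pairs differed by 0.32 and 0.28 and the arrays by less. Saline array 2 minus saline array 1 was -0.42 for QDPR, -0.41 for GPR17, -0.37 for ASPA, -0.22 for GJB1, 0.07 for BCAS1, 0.27 for CLDN11 and 0.28 for MAL, where the median size over all genes was 0.18. On saline array 2 the pair of samples differed by 0.04 or less for 6 of the 7 genes, GJB1 being the exception with 0.28. Dexamethasone array 4 was above array 3 for all 7 genes, by 0.05 for QDPR to 0.56 for BCAS1, against a median size of 0.10 over all genes. The share of all genes with array 4 above array 3 was not counted, so this direction is not shown to be particular to the 7. The array means of the groups did not overlap for 5 of the 7, lower for GJB1, CLDN11 and BCAS1 and higher for MAL and QDPR, against 48.6% of all genes, 21.9% lower and 26.7% higher. These counts too are of genes chosen with earlier results of these data known, and do not test the set against all genes.

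**Figure D4:**
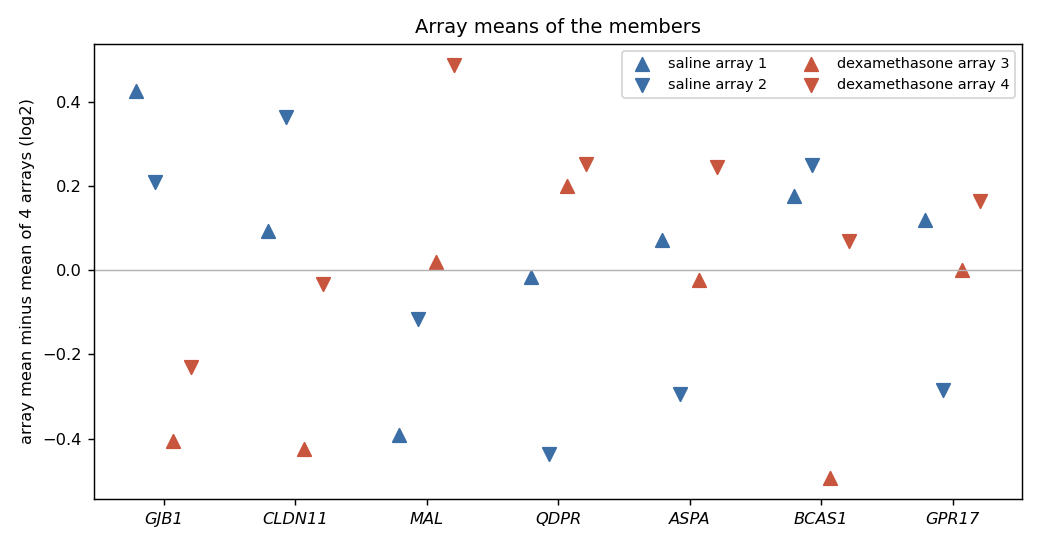
Mean log2 intensity of the 2 samples of each array, minus the mean of the 4 arrays (y axis), for each of the 7 genes. Triangles pointing up are the first and triangles pointing down the second array of a group. Dexamethasone array 4 is above array 3 for each of the 7 genes (share over all genes not counted), and the arrays of the groups overlap for ASPA and GPR17.

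When the 2 samples of an array were averaged first and 2 arrays were compared with 2, the limma adjusted p of GJB1, CLDN11, MAL and QDPR was 0.496 each. In that comparison 0 of the 7 passed an adjusted p of 0.05, 0 of 11265 genes did so, and 1110 genes had an unadjusted p under 0.05. With an array left out, calls did arise. Without saline array 1, GJB1 (adjusted p = 0.0308), QDPR (0.00564) and GPR17 (0.0457) passed, and without saline array 2, GJB1 passed (0.0350). In those fits the correlation estimated between the samples of an array was -0.32 and -0.37, where it was 0.24 with all arrays, and 2328 and 223 of all genes were called in place of 7. Without a dexamethasone array, 0 of the 7 passed.

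**Figure D5:**
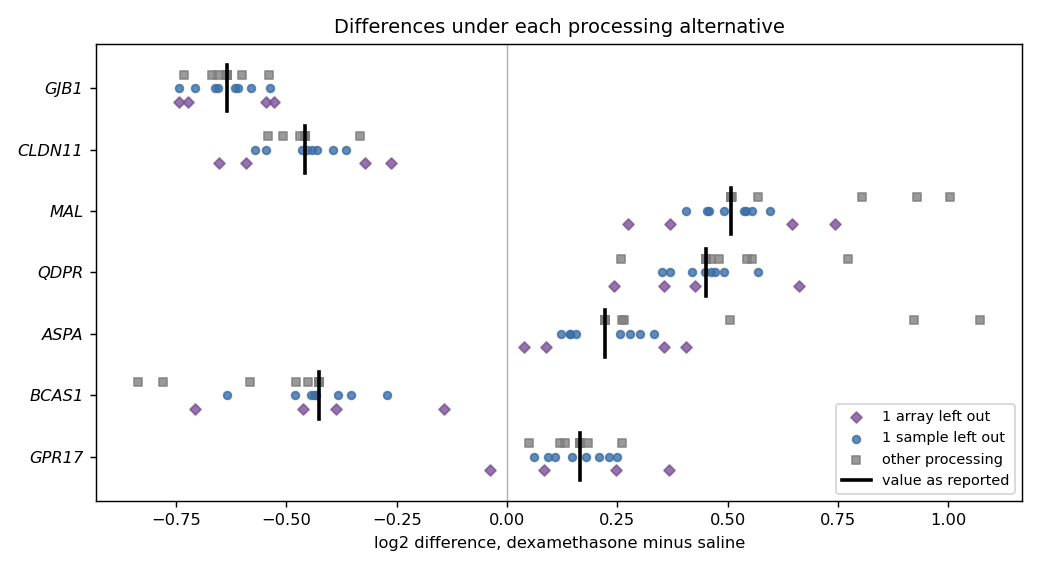
Log2 difference of dexamethasone minus saline (x axis) for each of the 7 genes as reported (black line) and under each alternative: 1 array left out (diamonds), 1 sample left out (circles) and other processing (squares). GJB1, CLDN11 and BCAS1 stay below 0, MAL, QDPR and ASPA stay above it, and GPR17 crosses it without saline array 2, at -0.04.

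Other genes of the oligodendrocyte lineage show where the 7 genes stand. Of 39 listed myelin and mature oligodendrocyte genes without the 7, 24 had a probe and 15 were compared, 10 above and 5 below 0, with a median of 0.08 and 0 past an adjusted p of 0.05. At an unadjusted p under 0.05 were UGT8, which makes the myelin galactolipids, with 0.29 (SE 0.12), transferrin (TF) with 0.39 (SE 0.17) and FA2H, which hydroxylates the fatty acids of the same lipids, with -0.23 (SE 0.10). Several defining markers of the mature cell were too dim to compare: OPALIN and ERMN, both proteins of the finished sheath, passed the scanner's background test in 0 of 8 samples, and MOBP, a basic protein of compact myelin, in 1 of each group. Of 25 listed precursor and premyelinating genes, 13 had a probe and 7 were compared, 4 above and 3 below 0, with a median of 0.02 and 0 past an adjusted p of 0.05. GPR37, a receptor of maturing oligodendrocytes, had 0.37 (SE 0.23) and the proteoglycan CSPG5 0.15 (SE 0.13).

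Of the markers of other cells, 0 passed an adjusted p of 0.05 in each list. The labelled tissue was checked by neuron markers. Of 20 listed, 13 had a probe and 11 were compared, 8 above and 3 below 0, with a median of 0.12. The summed level of the neuron markers with a value in all 8 samples was 17.3 to 17.6 in saline and 17.6 to 17.8 with dexamethasone. Astrocyte markers (13 of 20 compared) had a median of 0.04 and microglia markers (6 of 16) one of -0.02. Endothelial and pericyte markers (8 of 16) had a median of 0.03, and choroid plexus and ependyma markers (7 of 14) one of 0.17. The summed choroid level spanned 15.7 to 17.2 among saline samples and 14.4 to 18.3 among dexamethasone samples. Blood cell markers (4 of 12) had a median of -0.09, with S100A9 at -0.93 (SE 0.13, limma adjusted p = 0.0721).

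The genes whose profile over the 8 samples was nearest to each of the 7 were found by the root mean square distance between log2 values centred per gene within each dye, over 5703 genes with a symbol and all 8 values. GJB1 was nearest to TAF15 and PATZ1 (distances 0.11 and 0.12), CLDN11 to DDHD1 and RTRAF (both 0.11), and MAL to BCAS4 and DNAI3 (0.11 and 0.14). QDPR was nearest to CYB5R1 and CCS (0.05 and 0.07), ASPA to TANK (0.03), BCAS1 to WARS1 and PSME1 (both 0.13), and GPR17 to PDE6D and UBE2D2 (both 0.04). The median distance over all candidates ran from 0.23 for GPR17 to 0.40 for GJB1. The 7 genes were left out of the candidates, so their distances to each other were not compared.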

How the data were processed

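RNA of 8 forebrain samples was read on 4 Agilent 2-colour arrays. The deposited scanner files give spot intensity per dye, made by the authors with Agilent Feature Extraction (10.7.3.1 per the submitters' processing notes, 11.0.1.1 per the file headers). The deposited series table holds 1 signal for each spot, equal to the median less the background median in that sample's dye over a fixed divisor, within 0.1% for 100% of values. Each column's median is 1, its scale and direction are known, and it lists no control spot. The scanner's processed signal, also an intensity, was made by the authors' software, per the file headers.

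The channel of a sample was taken from its dye label. Intensities were corrected with normexp (offset 50), normalised by loess within and Aquantile between arrays, and taken as log2 per channel, with outlier spots left out and 0 spots saturated. Probes that passed the scanner's background test in 4 or more of 8 samples were kept (23165), and 3 values per group were needed. The brightest such probe stood for a gene. Limma 3.58.1 in R 4.3.3 was fitted with dye as a term and array as a random block (correlation 0.24), over 11265 genes and separately over 20704 probes, with Benjamini-Hochberg adjustment. The fit was tested on simulated data. Probes took names from the array's annotation and a RefSeq table of mOryCun1.1, by which 22340 probes had 1 symbol and 21263 had none, with 146 probes matching several genes. RefSeq supplied names and neighbours only.

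The 7 genes, the 15 gene lists and the alternatives were chosen with earlier results of these data known. Named genes were the 7 with every probe, genes with the 2 smallest p-values of each list or an adjusted p under 0.05, and the 2 nearest genes of each of the 7. Not every gene named by that rule is printed, and a few are not reported here. GJA1, ACSS2, FA2H, NOS3, OPALIN, ERMN, MOBP and the MAL-like gene were added after their values were seen. COL1A2, PTGDS and ALDH1A2 were also named outside the rule. Replicate numbers did not pair the samples. Alternatives covered the background correction, starting signals, normalisation, dim-probe filter, probe rule, array block, dye term, replicate block, outlier spots, missing values, prior, threshold, and each sample and array left out.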

Additional observations from a re-analysis of the deposited data

Results flagged for a closer look

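In 2 of the 26 groups of 4 values checked over the member probes, 1 sample stood far from the other three for the width of its group, where chance alone gives about 1 in 20. In QDPR probe 4, saline 2 read 9.38, with the nearest saline sample at 9.27. In GPR17, dexamethasone 3 read 9.33, with the nearest dexamethasone sample at 9.09. The gap was 0.876 and 0.846 of the group's range, above Dixon's critical value for 4 samples. Leaving out 1 sample at a time kept GPR17 between 0.06 and 0.25.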

How the results depend on the processing

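All genes called numbered 7 (probes 7), and members called 0. The genes called (probes in brackets) were 14 (15) with processed signals, loess and Aquantile, 15 (14) with those scaled to the 75th percentile, 3 (2) with probes well above background in all 8 samples, 2 (2) with no filter, 23 (28) with no array block, 0 (0) with array means, 18 (19) with no dye term, and 23 (12) at an adjusted p of 0.10. Quantile normalisation gave 3 probes and the mean of a gene's probes 11 genes. Leaving out 1 sample gave 0 to 8 genes, 0 without any one of the 4 dexamethasone samples, and 0 to 8 probes. Without array 1 there were 2328 (3347), with 3 members called, without array 2 there were 223 (168), with 1 member called, and without array 3 or array 4 there were 0 (0). The cause of these changes was not tested.

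The replicate number as a block, in place of dye and array, called 1 gene and 0 probes. Samples of the same number correlated by -0.12, -0.14, -0.02 and 0.09 in their deviations, so the numbers were not taken as pairs, and no member's call changed under the block.

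No member passed an adjusted p of 0.05 in the 26 alternatives other than the removal of array 1 or array 2. GJB1 ranged from -0.74 to -0.53, CLDN11 from -0.65 to -0.26, MAL from 0.27 to 1.00, QDPR from 0.24 to 0.77, ASPA from 0.04 to 1.07 and BCAS1 from -0.84 to -0.14, each with 1 sign throughout. GPR17 ran from -0.038, without array 2, to 0.37. MAL and ASPA could not be fitted with probes well above background in all 8 samples. The deposited table moved the median of all genes to 0.13, against 0.02, and gave GPR17 0.26, ASPA 0.51, GJB1 -0.54 and CLDN11 -0.33. Depth on an array is signal over background, which limits MAL and ASPA most.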
